A study of Mus musculus with 8 samples.

Results

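Bone morphogenetic protein (BMP) signalling was examined through 10 genes, chosen by symbol: the ligands Bmp2, Bmp4 and Bmp7, the receptors Bmpr1a and Bmpr2, the secreted antagonists Nog and Grem1, and the inhibitor of DNA binding genes Id1, Id2 and Id3. All 10 were among the 23361 genes of the deposited expression table, and all 10 were among the 14357 genes expressed highly enough to be tested. The libraries came from mouse tissue of the gastric squamous-columnar junction (SCJ), the line where the keratinizing lining of the forestomach meets the glandular stomach. The 5 Cancer libraries were Trp53-/-Rb1-/- SCJ tumours of Lgr5eGFP-Ires-CreERT2 Trp53loxP/loxP Rb1loxP/loxP Ai9 mice, dissected months after tamoxifen along the edges of the tdTomato signal. The 3 Control libraries were SCJ of wild type mice of paired age, labelled with neither the floxed alleles nor the Cre. Cre was expressed from the Lgr5 locus, so deletion began in Lgr5+ cells, and a dissected tumour may also hold cells without the deletions. Whether the tumours came from separate mice was not stated, and p-values measure the spread between these samples only.

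BMPs are secreted dimers that bring together type I receptors, such as BMPR1A, and type II receptors, such as BMPR2. The type I receptor phosphorylates SMAD1, SMAD5 and SMAD9, which enter the nucleus with SMAD4 and switch on target genes, of which Id1, Id2 and Id3 are the classical direct ones. ID proteins lack a DNA-binding region and hold E proteins away from DNA, which restrains differentiation in many lineages. Noggin and gremlin bind BMPs outside the cell and keep them from their receptors. In the stomach and intestine, BMP activity is highest near differentiated cells, and antagonists from the stroma around the gland base shield the stem cells.

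The members lie on 6 chromosomes. Coordinates are those of the table in mm10, counted from 1. Bmp2 (133553199 to 133562885), Bmp7 (172869687 to 172940293), Grem1 (113748675 to 113758648) and Id1 (152736274 to 152737410) are on chromosome 2. Bmp4 (46379524 to 46390599) and Bmpr1a (34411068 to 34502546) are on chromosome 14. Bmpr2 is on chromosome 1 (59764637 to 59870859), Nog on chromosome 11 (89300638 to 89302559), Id2 on chromosome 12 (25093799 to 25096092) and Id3 on chromosome 4 (136143822 to 136145392). Genes of the opposite strand overlap Bmp4 (Gm15217 and Gm15222) and Bmpr1a (Gm17110), and Gm38125 lies on the same strand within Bmpr2. Whether the authors' counting used strand was not stated, so reads of such partners may be included in these values.

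Promoter sequences of 6 members were in the RefSeq table used (Bmpr2, Grem1, Id3, Id2, Bmpr1a and Bmp4). Each window ran from 250 bases before the RefSeq start site to 50 after it. Both strands were searched for GGCGCC, a GC-rich element at which SMADs of the BMP branch bind, and for the E-box CANNTG, at which dimers of E proteins bind. Both motifs read the same on either strand. They can share an end base, which did not happen in the window that held both. GGCGCC occurred in 4 of the 6 windows, those of Grem1, Id2, Bmpr1a and Bmpr2, against 11.9% of 32851 RefSeq promoters of 300 bases. The element holds only G and C, which made up 70.7%, 63.3%, 79.3% and 59.3% of these 4 windows. The promoters it was set against were not matched for this, and an enrichment was not tested. The Bmpr2 window is that of a start site 358 bases away from the start of the gene in the table, and the Bmp4 window that of one 70 bases away. CANNTG occurred in the Id2 window and, at 3 places, in the Bmp4 window, against 72.3% of all promoters. A match is a run of letters only and was not tested for binding. The 250 bases before the start sites of Grem1, the member with the widest spread over the libraries, and of a pair of SMAD target genes are given 5′ to 3′, with GGCGCC in capitals. They are from GRCm38.p6, chr2:113758649-113758898 on the minus strand for Grem1, chr12:25096093-25096342 on the minus strand for Id2 and chr4:136143572-136143821 on the plus strand for Id3.
Grem1: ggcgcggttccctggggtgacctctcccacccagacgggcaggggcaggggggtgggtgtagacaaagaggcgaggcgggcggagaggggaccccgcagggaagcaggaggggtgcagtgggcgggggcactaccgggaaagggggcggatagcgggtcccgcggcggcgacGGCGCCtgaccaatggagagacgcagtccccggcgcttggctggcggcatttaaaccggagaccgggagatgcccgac
Id2: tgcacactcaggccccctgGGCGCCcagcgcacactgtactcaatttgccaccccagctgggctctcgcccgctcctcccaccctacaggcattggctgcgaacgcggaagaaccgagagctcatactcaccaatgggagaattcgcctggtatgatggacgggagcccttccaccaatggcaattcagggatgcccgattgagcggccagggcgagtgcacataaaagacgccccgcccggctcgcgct
Id3: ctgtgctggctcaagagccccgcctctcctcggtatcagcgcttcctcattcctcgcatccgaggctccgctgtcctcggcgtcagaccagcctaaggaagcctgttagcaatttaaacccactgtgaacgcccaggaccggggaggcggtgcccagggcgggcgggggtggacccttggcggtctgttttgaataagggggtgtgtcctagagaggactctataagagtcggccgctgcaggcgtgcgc
The capitals of the Grem1 sequence begin 78 bases before its start site. Those of the Id2 sequence begin 231 bases before the start site, and its single CANNTG begins 196 bases before it. The Id3 sequence holds neither motif.

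Expression is given as FPKM (sequenced fragments relative to transcript length and library size), which the authors normalized between libraries and rounded to whole numbers. A low gene can thus take only a few values. The table gives no read numbers, and the sequencing depth behind each value is unknown. The FPKM of a library summed to between 403569 and 573858 in cancers and between 887141 and 992550 in controls, where the 10 most abundant genes took 39.3% to 44.3% of the sum. Each fold change was therefore also computed after each library was rescaled to the same sum (the TPM scale), which moved the median log2 fold change of all tested genes from -0.04 to 0.81. Rb1, a deleted gene, was at 4, 4, 5, 6 and 4 FPKM in cancers 1 to 5 and at 9, 9 and 10 in controls 1 to 3. Trp53, the other deleted gene, was at 12, 22, 12, 30 and 12 FPKM in the cancers and at 16, 17 and 19 in the controls, and these values are per gene, with the deleted exons not counted apart.

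Differences were tested on log2(FPKM + 1) over all 14357 genes with limma and Benjamini-Hochberg adjustment, and genes with an adjusted p under 0.05 are said to have risen or fallen. Changes are given as log2 fold changes of cancers over controls, with their standard error (SE). Of the 10 members, 2 rose (Bmp7 and Grem1), 2 fell (Bmp2 and Bmpr2) and 6 did not pass the test. Of all genes tested, 34.5% passed, 16.2% higher and 18.3% lower in cancers, so the members' share, 4 of 10, is near that of all genes. The median log2 fold change of the members was -0.20. Cancers and controls did not overlap in 5 members, the 4 above and Id1, against 34.1% of all genes. Of all genes 14.4% had every cancer above every control, as Bmp7 and Grem1 did, and 19.8% had every cancer below every control, as the other 3 did. The two-sided exact permutation test gave each of these 5 a p of 0.036, the smallest p that 5 against 3 samples allow.

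**Figure D1:**
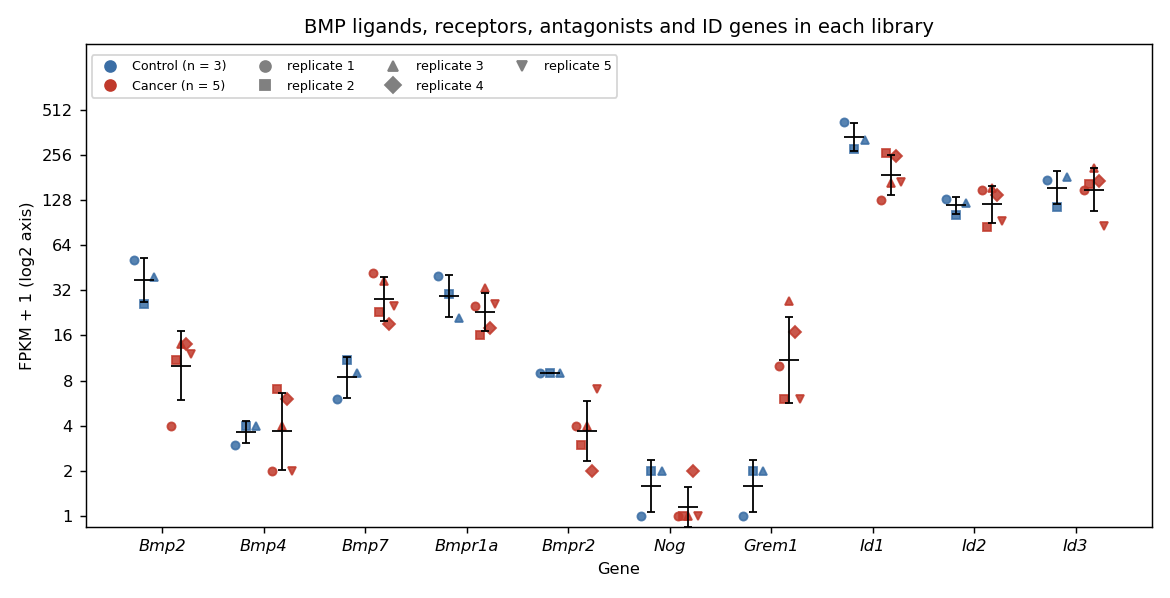
FPKM + 1 on a log2 axis for the 10 member genes in each library, with controls in blue (n = 3) and cancers in red (n = 5), replicate numbers by marker shape, and the mean and SD of log2(FPKM + 1) in black. All 5 cancers lie above all 3 controls for Bmp7 and Grem1 and below them for Bmp2, Bmpr2 and Id1.

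Among the ligands, the cancers held less Bmp2 and more Bmp7 than the control SCJ, and Bmp4 was low in both. Bmp2 was at 3, 10, 13, 13 and 11 FPKM in cancers 1 to 5 and at 50, 25 and 38 in controls 1 to 3. All 5 cancers were below all 3 controls, with the lowest value in cancer 1. The cancers had a mean Bmp2 of 10 ± 4.12 FPKM (SD, n = 5), and the controls, at 37.7 ± 12.5 (SD, n = 3), were 3.77-fold higher. The log2 fold change was -1.89 (SE 0.45, adjusted p = 0.017, limma). With TPM it was -1.0 (adjusted p = 0.069, limma), which is 1.81 below the median of all genes. The call was also lost without control 1 (adjusted p = 0.072) or control 3 (0.060, limma).

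Bmp7, a ligand that can also pair with BMP2 in heterodimers, showed the opposite order. It was at 41, 22, 36, 18 and 24 FPKM in cancers 1 to 5 and at 5, 10 and 8 in controls 1 to 3. The lowest cancer, at 18, was above the highest control, at 10. Means were 28.2 ± 9.81 FPKM (SD, n = 5) and 7.67 ± 2.52 (SD, n = 3), 3.68-fold apart, and the log2 change was 1.73 (SE 0.31, adjusted p = 0.0067, limma). With TPM it was 2.69 (adjusted p = 0.0017, limma).

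Bmp4, the ligand most closely tied to gut mesenchyme, was at 1, 6, 3, 5 and 1 FPKM in the cancers and at 2, 3 and 3 in the controls. The groups overlapped, and cancers 2 and 4 were above and cancers 1 and 5 below all controls. Its log2 fold change of 0.02 had a 95% interval from -1.07 to 1.10 (adjusted p = 0.98, limma). The direction of Bmp4 turned with the pseudocount, with quantile normalization, with array weights, within the rounding of the deposited values and with the library left out (-0.22 to 0.24).

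Bmp2 and Bmp7 thus changed places as the leading ligand of the 3. The ratio of Bmp7 to Bmp2, chosen after the values were seen and not tested, does not depend on how libraries are scaled. It was 13.7, 2.20, 2.77, 1.38 and 2.18 in cancers 1 to 5 and 0.10, 0.40 and 0.21 in controls 1 to 3. In other words, Bmp7 exceeded Bmp2 in 5 of 5 cancers, and Bmp2 exceeded Bmp7 in 3 of 3 controls, by 10, 2.5 and 4.75 times. Cancer 1 had both the highest Bmp7 and the lowest Bmp2.

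Other BMP ligands were sparse. Of 14 ligands listed, members included, 7 were listed at 0 in all 8 libraries and 7 were tested, of which 1 rose and 2 fell, beside 16.2% and 18.3% of all genes. The third call was Bmp8a, at 1 FPKM in each control and listed at 0 in each cancer (adjusted p = 0.0011, limma), a difference of a single rounding step. The FPKM of the 14 ligands summed to 36 to 52 in cancers and 45 to 65 in controls. The summed ligand level of the groups overlapped.

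Among the receptors, Bmpr2 was lower in the cancers, while Bmpr1a did not pass the test. Bmpr2, a type II receptor for BMPs, was at 3, 2, 3, 1 and 6 FPKM in cancers 1 to 5 and at 8 in each of the 3 controls. The highest cancer was 2 units below the controls. The log2 fold change was -1.29 (SE 0.36, adjusted p = 0.030, limma). The call was lost in 6 of the 8 fits that left out 1 library (adjusted p from 0.051 to 0.090), and held without cancer 4 (adjusted p = 0.030) or cancer 5 (0.0097, limma). With TPM the log2 fold change was -0.54 (adjusted p = 0.36, limma), 1.35 below the median of all genes.

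Bmpr1a, the type I receptor through which BMP2 and BMP4 act, was at 24, 15, 32, 17 and 25 FPKM in the cancers and at 39, 29 and 20 in the controls. The groups overlapped, and the cancers spanned both sides of control 3. Its log2 fold change was -0.36 (95% interval -1.05 to 0.32, adjusted p = 0.36, limma), and with TPM it turned to 0.58 (adjusted p = 0.21, limma).

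Of 10 receptors and co-receptors listed, all 10 were tested, 1 rose and 3 fell, near the 34.5% of all genes that passed. With TPM 3 rose, beside 50.0% of all genes, and none fell (limma), although 1 was lower at an unadjusted p under 0.05. Bmpr1b, another type I receptor, was at 1, 1, 1, 2 and 0 FPKM in the cancers and at 4, 6 and 4 in the controls (log2 change -1.57, SE 0.34, adjusted p = 0.012, limma). The call on Bmpr1b was lost with TPM (adjusted p = 0.077) and without control 2 (0.051, limma). Acvr2a, a type II receptor shared with activins, was at 4, 3, 6, 5 and 5 FPKM in the cancers and at 9, 9 and 7 in the controls. The log2 change of Acvr2a was -0.75 (adjusted p = 0.026, limma) and turned to 0.09 with TPM, and its adjusted p was 0.092 without control 1 and 0.093 without control 2 (limma). The 3 receptors that fell, Bmpr2 among them, had no overlap between the groups.

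The receptor that rose was Eng, endoglin, a co-receptor of endothelial cells, named here after its values were seen. It was at 14, 9, 11, 10 and 2 FPKM in cancers and at 1, 2 and 2 in controls (log2 fold change 1.78, adjusted p = 0.031, limma), with cancer 5 at the level of the controls. The call held without cancer 5 and was lost in the other 7 fits that left out a library (adjusted p from 0.055 to 0.11, limma). Of 10 endothelial markers 5 rose and none fell, beside 16.2% and 18.3% of all genes. With TPM 9 rose and none fell, beside 50.0% and 3.68% of all genes. Their FPKM summed to 31 to 93 in cancers, lowest in cancer 5, and to 17 to 25 in controls. Vwf and Erg were listed at 0 in controls 1 and 3 and Tek in control 3. The part of endothelial cells in the Eng values was not tested.

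**Figure D2:**
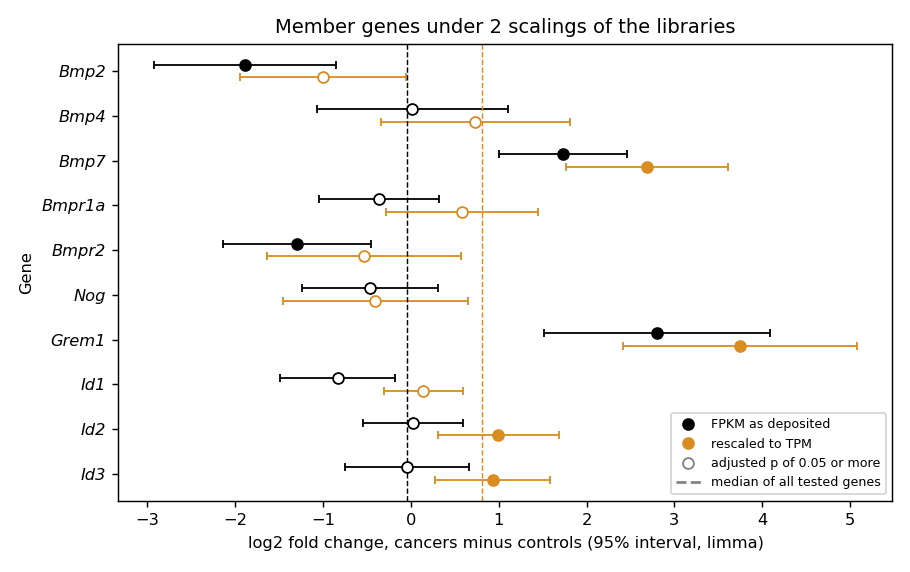
Log2 fold change, cancers minus controls, of each member gene with its 95% interval from limma, for FPKM as deposited (black) and after rescaling to TPM (orange), with filled points for an adjusted p under 0.05 and dashed lines at the median of all tested genes (-0.04 and 0.81). Bmp7 and Grem1 lie above the median under both scalings and have filled points in both.

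Among the antagonists, Grem1 was at 1 FPKM or less in the controls and rose to the level of the ligands in the cancers, while Nog was at 1 or less in both. Grem1 was at 9, 5, 26, 16 and 5 FPKM in cancers 1 to 5 and at 0, 1 and 1 in controls 1 to 3. The lowest cancers, at 5, were above the highest controls, at 1, and cancers 3 and 4 were highest. The log2 fold change on the log2(FPKM + 1) scale was 2.80 (SE 0.55, adjusted p = 0.0090, limma), and 3.75 with TPM (adjusted p = 0.0019, limma). The size of this change is uncertain, since the control values are single rounding steps. Within the 0.5 FPKM that rounding hides, the log2 fold change could lie between 2.31 and 3.15. With a pseudocount of 0.1 it was 4.34 (adjusted p = 0.014, limma).

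Nog, which encodes noggin, was listed at 0, 0, 0, 1 and 0 FPKM in the cancers and at 0, 1 and 1 in the controls. Every value was 0 or 1, and the groups overlapped (adjusted p = 0.29, limma). Rounding alone could turn its direction, from -0.96 to 0.34 on the log2 scale.

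Of 18 antagonists and decoys listed, 15 were tested and 3 were listed at 0 in all libraries. Of the 15, 4 rose and 1 fell, near the 34.5% of all genes that passed, and their median log2 fold change was 0.91 against -0.04 over all genes. Their FPKM, over the 18, summed to 90 to 207 in cancers and to 57 to 75 in controls, much of it from Twsg1 (35 to 83 in cancers, adjusted p = 0.056, limma) and Fst, named for this after their values were seen. Without these 2 genes the sums were 42 to 89 and 30 to 45, and the groups overlapped. With TPM, 11 of the 15 rose and none fell (limma; 1 was lower at an unadjusted p under 0.05), beside 50.0% of all genes higher and 3.68% lower on that scale.

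Fst, which encodes follistatin, a binder of activins and of some BMPs, was at 72, 15, 14, 20 and 6 FPKM in cancers 1 to 5 and at 1 in each control. All cancers were above the controls, with cancer 1 highest (log2 fold change 3.26, SE 0.65, adjusted p = 0.0094, limma). Bambi, a membrane pseudoreceptor that lacks the kinase domain, was at 9, 4, 4, 2 and 2 FPKM in the cancers and listed at 0 in each control (adjusted p = 0.0059, limma). Bmper, a secreted modulator that binds BMPs, was at 2, 1, 1, 1 and 1 FPKM in the cancers and listed at 0 in each control (adjusted p = 0.0038, limma). Sostdc1, an antagonist of BMP and Wnt ligands named after its values were seen, was the one that fell. It was at 0, 0, 1, 4 and 0 FPKM in the cancers and at 3, 10 and 7 in the controls, with cancer 4 inside the control range (adjusted p = 0.031, limma). The call on Sostdc1 held without cancer 4 or control 1, and was lost without any other library (adjusted p from 0.057 to 0.11) and with TPM (0.057, limma).

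Stromal and immune markers are given beside these antagonists, since fibroblasts and smooth muscle are known sources of gremlin. Of 8 fibroblast markers 1 rose (Thy1) and none fell, with TPM 6 rose and none fell, and their FPKM summed to 68 to 360 in cancers and 80 to 157 in controls. No fibroblast marker was at 0 in any library. Of 8 smooth muscle markers none passed the test by limma, also none at an unadjusted p under 0.05 or with TPM, and the sum was 44 to 1710 in cancers and 361 to 554 in controls. In cancer 1, where the sum was lowest, Cnn1 and Lmod1 were listed at 0 and the other 6 were at 1 to 20 FPKM. Of 6 leukocyte markers 5 were in the table. Of these 1 rose (Csf1r) and none fell, beside 16.2% of all genes higher, and with TPM 2 rose and none fell, beside 50.0% higher. Their sums were 12 to 120 in cancers (12 to 30 without cancer 1, where Cd79a was at 68 FPKM) and 9 to 10 in controls. In bulk tissue, fewer cells of a type and less RNA per cell cannot be told apart, and the part of these cells in the antagonist values was not tested.

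The ID genes were the most abundant members in both groups, and none of the 3 passed the test by limma (1, Id1, had an unadjusted p under 0.05). Id1 was at 127, 263, 166, 251 and 167 FPKM in cancers 1 to 5 and at 421, 277 and 320 in controls 1 to 3. All 5 cancers were below all 3 controls, although cancer 2 and control 2 were 14 units apart. Means were 195 ± 59.2 FPKM (SD, n = 5) and 339 ± 73.9 (SD, n = 3), and the log2 fold change was -0.83 (95% interval -1.49 to -0.17, adjusted p = 0.054, limma). The adjusted p was 0.016 with array weights, 0.034 without cancer 2 and 0.042 without cancer 4 (limma). Quantile normalization brought the log2 fold change to -0.32 (adjusted p = 0.20, limma). With TPM the log2 fold change turned to 0.14 (adjusted p = 0.54, limma), which is 0.67 below the median of all genes.

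Id2 was at 149, 83, 152, 137 and 92 FPKM in the cancers and at 129, 101 and 122 in the controls. The controls lay inside the range of the cancers. The log2 fold change was 0.03 (95% interval -0.55 to 0.60, adjusted p = 0.94, limma). With TPM it was 1.0 (adjusted p = 0.024, limma), 0.19 above the median of all genes.

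Id3 was at 148, 163, 207, 170 and 85 FPKM in the cancers and at 173, 114 and 181 in the controls. The controls again lay inside the range of the cancers, whose lowest and highest values were cancer 5 and cancer 3. The log2 fold change was -0.04 (95% interval -0.75 to 0.66, adjusted p = 0.92, limma). It turned to 0.93 with TPM (adjusted p = 0.025, limma), 0.12 above the median of all genes, and also turned with quantile normalization and array weights. With TPM 4 members rose (Bmp7, Grem1, Id2 and Id3) and none fell (limma), with Bmp2 lower at an unadjusted p of 0.040, and 53.7% of all genes passed.

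Within the ID family the share of Id1 could be read without a scaling between libraries. Of the summed FPKM of Id1, Id2 and Id3, Id1 made up 30.0%, 51.7%, 31.6%, 45.0% and 48.5% in cancers 1 to 5 and 58.2%, 56.3% and 51.4% in controls 1 to 3. Cancer 2 lay between controls 2 and 3, and the other cancers were below all controls. Cancers 1 and 3 had the lowest shares, with Id2 and Id3 close to or above Id1.

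Of 5 ratios between members tested within libraries, none passed 0.05 after Benjamini-Hochberg adjustment over the 5. The Bmp2 to Bmp4 ratio was lower in the cancers by 1.90 on the log2 scale, with a mean of 1.45 ± 0.76 (SD, n = 5) against 3.36 ± 0.70 (SD, n = 3). The Bmp7 to Bmp4 ratio was higher by 1.72, with 2.92 ± 1.20 against 1.21 ± 0.23 (SD, n = 5 and 3). The Bmp4 to Grem1 ratio, a ligand to its antagonist, was below all controls in 5 of 5 cancers, at -1.59 ± 1.14 against 1.19 ± 0.34 (SD, n = 5 and 3). The difference of -2.78 became -4.41 with a pseudocount of 0.1. These 3 ratios had no overlap between groups and a two-sided exact permutation p of 0.036 (adjusted p = 0.060), the smallest that 5 against 3 samples allow. With a pseudocount of 0.1, TPM or quantile normalization, the groups overlapped in the Bmp2 to Bmp4 ratio (exact permutation p = 0.071 in each). The Id1 to Id2 ratio (exact permutation p = 0.11, adjusted p = 0.11) and the Id1 to Id3 ratio (exact permutation p = 0.071, adjusted p = 0.089) were lower in the cancers by 0.86 and 0.79, and both overlapped.

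**Figure D3:**
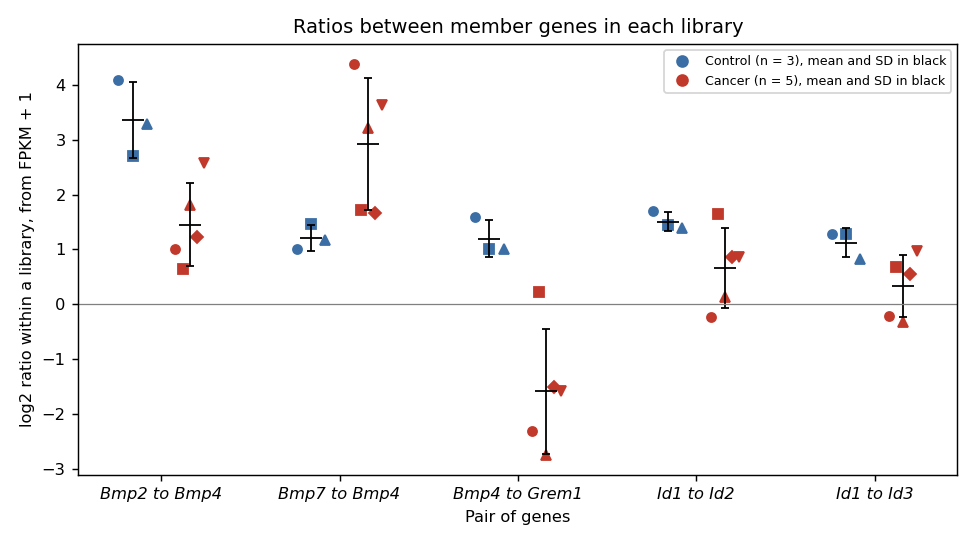
Log2 ratio, from FPKM + 1 within a library, of 5 pairs of member genes in 3 controls (blue) and 5 cancers (red), with mean and SD in black. The groups are apart for Bmp2 to Bmp4, Bmp7 to Bmp4 and Bmp4 to Grem1, and they overlap for Id1 to Id2 and Id1 to Id3.

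Between receptor and target stand the SMADs and their brakes. Of 8 such genes, beside 34.5% of all genes past the threshold and 18.3% lower, none rose (limma; Smad5 was higher at an unadjusted p of 0.038) and 4 fell, all 4 of them inhibitory: the inhibitory SMADs Smad6 and Smad7 and the ubiquitin ligases Smurf1 and Smurf2, which mark receptors and SMADs for degradation. Smad6 was at 3, 9, 5, 6 and 3 FPKM in the cancers and at 17, 11 and 18 in the controls (log2 change -1.46, SE 0.34, adjusted p = 0.016, limma). Smurf1 was at 6, 12, 6, 8 and 10 FPKM in the cancers and at 19, 14 and 16 in the controls (log2 change -0.92, adjusted p = 0.024, limma). Smurf2 was at 9, 7, 9, 8 and 9 FPKM in the cancers and at 15, 14 and 11 in the controls (log2 change -0.60, adjusted p = 0.018, limma). In these 3 genes all 5 cancers were below all 3 controls. Leaving out 1 library ended the call on Smad6 without control 1 or 3 (adjusted p = 0.065 and 0.063) and on Smurf2 without control 1 or 2 (0.073 in both, limma). It ended the call on Smurf1 without cancer 3 or any control (adjusted p from 0.050 to 0.093, limma).

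Smad7, named after its values were seen, was at 7, 8, 9, 6 and 6 FPKM in the cancers and at 11, 9 and 14 in the controls (adjusted p = 0.046, limma), with cancer 3 level with control 2. Its call held without cancer 3 and was lost without any other library (adjusted p from 0.051 to 0.15, limma). With TPM none of these 4 brakes passed (limma), also none at an unadjusted p under 0.05, and Smurf2 and Smad7 turned to 0.30 and 0.31 on the log2 scale. Smad6 stayed lower with TPM, at -0.62 (adjusted p = 0.10, limma), and Smurf1 was at -0.02. The signal carriers Smad1 (log2 fold change 0.07), Smad5 (0.45), Smad9 (-0.27) and Smad4 (-0.02), chosen after their values were seen, did not pass the test. With TPM Smad1 (1.02, adjusted p = 0.015), Smad5 (1.35, 0.0064) and Smad4 (0.93, 0.022, limma) rose, by 0.21, 0.54 and 0.12 more than the median of all genes.

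Of 11 target genes, members included, 10 were tested, 2 rose and 2 fell. Smad6 and Smad7 are targets as well as brakes, and the 2 that rose were Hey1 and Bambi, the latter also counted with the antagonists. Hey1, a transcriptional repressor that Notch switches on too, was at 11, 4, 9, 3 and 3 FPKM in the cancers and at 0, 0 and 1 in the controls (log2 change 2.31, SE 0.46, adjusted p = 0.0094, limma). Id4, the fourth ID gene, named after its values were seen, was at 3, 5, 6, 10 and 5 FPKM in the cancers and at 4, 4 and 6 in the controls (adjusted p = 0.63, limma). The share that passed, 4 of 10, is near the 34.5% of all genes. With TPM 7 of the 10 target genes rose and none fell (limma), also none at an unadjusted p under 0.05, beside 50.0% of all genes higher.

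Of the 3 E proteins that ID proteins bind, 1 rose, beside 34.5% of all genes past the threshold and 16.2% higher. With TPM 2 of the 3 rose, beside 50.0% of all genes. Tcf3, which encodes E12 and E47, was at 19, 17, 16, 13 and 13 FPKM in the cancers and at 9, 9 and 11 in the controls, with no overlap (log2 fold change 0.63, SE 0.16, adjusted p = 0.022, limma). The adjusted p of Tcf3 was 0.080 without control 1 and 0.083 without control 2 (limma). Tcf4 and Tcf12, named after their values were seen, did not pass (adjusted p = 0.69 and 0.54, limma), and Tcf4 rose with TPM (log2 change 1.07, adjusted p = 0.027, limma).

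Over the 61 pathway genes listed, 50 were tested, 8 rose and 10 fell, and 10 were listed at 0 in all libraries. Without the members, 40 were tested, 6 rose and 8 fell. The share that passed, 18 of 50, can be set beside the 34.5% of all genes. With TPM 26 of the 50 rose and 1 fell, beside 50.0% and 3.68% of all genes. The count fell to 8 without control 1, to 8 without control 2 and to 11 without control 3, and was 30 with array weights.

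**Figure D4:**
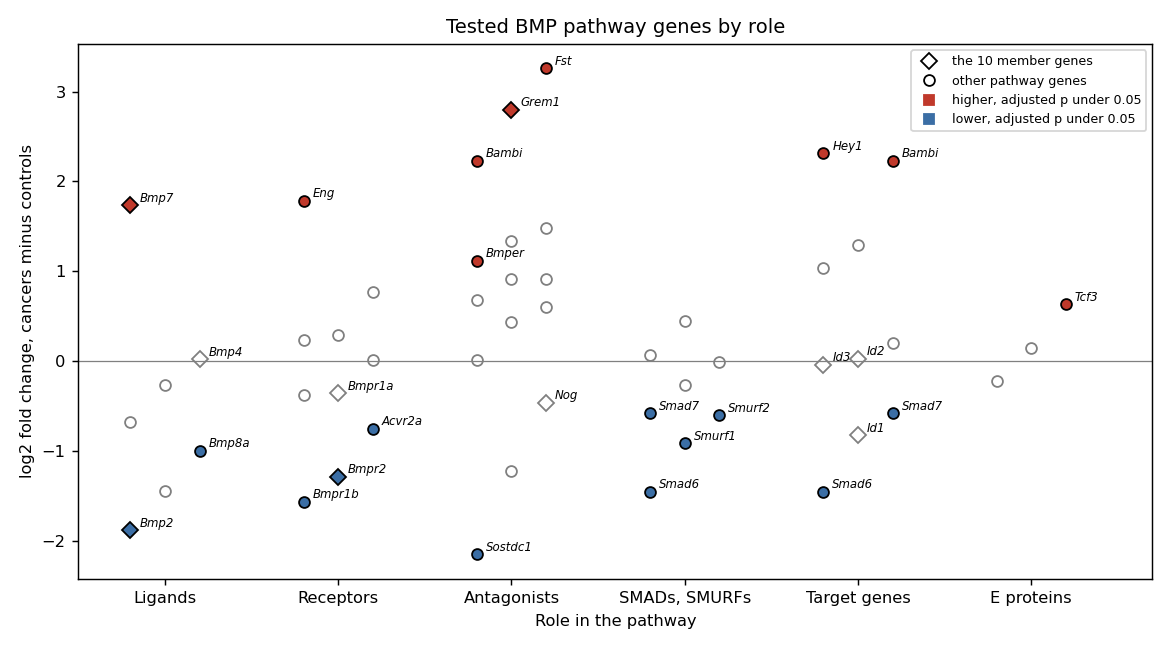
Log2 fold change, cancers minus controls, on the log2(FPKM + 1) scale, of the tested BMP pathway genes by role, with diamonds for the 10 member genes, red for genes that rose and blue for genes that fell (limma, adjusted p under 0.05). Genes with 2 roles appear under both, and for Bambi and Bmper, listed at 0 in controls, and Bmp8a, listed at 0 in cancers, the height depends on the pseudocount of 1.

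The order of the members by mean FPKM, a scale per transcript length, differed between the groups mostly in the middle. In the cancers it ran Id1 (195), Id3 (155), Id2 (123), Bmp7 (28.2), Bmpr1a (22.6), Grem1 (12.2), Bmp2 (10), Bmp4 (3.2), Bmpr2 (3) and Nog (0.20). Only the step from Id2 to Bmp7 had ranges over the 5 cancers that did not overlap. Within each cancer Bmpr1a was also above Grem1 and Bmp2 above Bmp4, in 5 of 5, while the other neighbours changed order or were level in at least 1 cancer. In the controls it ran Id1 (339), Id3 (156), Id2 (117), Bmp2 (37.7), Bmpr1a (29.3), Bmpr2 (8), Bmp7 (7.67), Bmp4 (2.67), and Nog and Grem1 (both 0.67). There the ranges overlapped between Id3 and Id2, Bmp2 and Bmpr1a, Bmpr2 and Bmp7, and Nog and Grem1. The 10 members together made up 0.093% to 0.15% of summed FPKM in the cancers and 0.064% to 0.087% in the controls. Their own FPKM summed to 416 to 638 in the cancers and 569 to 827 in the controls, which overlapped. The sum over all genes was larger in the controls.

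Grem1, Bmp2 and Bmp7 varied most over the 8 libraries, with SDs of log2(FPKM + 1) of 1.65, 1.16 and 0.996. For each, the 3 genes of most similar profile were taken from 9126 tested genes with a mean FPKM of at least 5, by the root mean square difference of the centred log2 values over the 8 libraries. For Grem1 they were Ache, Nt5dc2 and Glcci1, with differences of 0.49, 0.50 and 0.52. Ache, which encodes acetylcholinesterase, was at 6, 3, 34, 21 and 7 FPKM in the cancers and at 1 in each control, with its highest values in the same cancers 3 and 4. For Bmp2 they were Klhl22, C2cd4a and Gyk (0.28, 0.31 and 0.33), and for Bmp7 they were Eid2, Rcn1 and Mcm2 (0.18, 0.18 and 0.19). Mcm2, a subunit of the replicative helicase, was at 40, 23, 29, 18 and 23 FPKM in the cancers and at 7, 9 and 8 in the controls. These are the closest of many candidates over 8 libraries of 2 unlike groups, and the likeness was not tested.

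Markers of the epithelia differed between the groups in the same libraries. Gastric gland markers summed to 692 to 71685 FPKM in cancers and to 156314 to 237038 in controls, and of the 9 markers 1 fell (Gkn1, limma). The call on Gkn1 held in 3 of the 8 fits that left out 1 library. At an unadjusted p under 0.05 (limma) 6 of the 9 were lower. In 7 every cancer was below every control, beside 19.8% of all genes. The median log2 fold change of the 9 was -4.71. Cancer 1 was listed at 0 for Muc5ac, Muc6, Atp4a, Atp4b and Gif, and Pgc was listed at 0 in controls 2 and 3 but was at 28832 FPKM in control 1. Squamous markers summed to 1 to 1656 FPKM in cancers and to 2146 to 3708 in controls, and of 8 markers 2 fell (Krt4 and Lor). The call on Krt4 was lost with TPM (adjusted p = 0.056, limma). With 1 library left out, it held in 2 of 8 fits and the call on Lor in 5 of 8. Cancer 4 lay above all controls for Krt5 (574 FPKM), Krt14 (403), Trp63 (21) and Dsg3 (18), while Krt5, Krt13, Krt14, Krt4, Trp63, Ivl and Dsg3 were listed at 0 in cancer 1. The neuroendocrine markers Chga, Chgb, Syp, Insm1 and Scg2 all rose (5 of 5, limma), with sums of 7746 to 17202 FPKM in cancers and 123 to 185 in controls, and none of them was listed at 0 in any library. Without cancer 1, where both epithelial sums were lowest, the log2 fold change of Bmp2 was -1.55 (adjusted p = 0.0072, limma). The groups in that fit still differed in epithelium. The other cancers had gland sums of 5578 to 71685 and squamous sums of 26 to 1656 FPKM, all below the controls. The part of the changed cell makeup in the values of Bmp2, Bmp7, Bmpr2 and Id1 was not tested.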

How the data were processed

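RNA-Seq libraries were made from polyA+ RNA of 5 SCJ cancers and 3 control SCJ with a directional kit. Per the submitters' processing notes and the methods of the study, the authors used cutadapt 1.8, TopHat2 2.0.13, cuffquant and Cuffnorm 2.2.1 with UCSC mm10 genes. The normalization option of Cuffnorm was not given in the sources used here. The deposited values are FPKM that the authors normalized and rounded to whole numbers (100% were whole), and were handled as a score, not as reads. Depth is unknown, and rounding limits precision for genes near 0.

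Genes that reached FPKM 1 in 3 or more samples were compared on log2(FPKM + 1), a pseudocount of 1, by limma 3.58.1 (eBayes with trend, R 4.3.3), Benjamini-Hochberg adjustment over all 14357 genes and a threshold of 0.05. A fold change on this scale understates that of low genes. Single genes and ratios were compared by two-sided exact permutation tests over 56 splits, doubling the smaller tail. The limma fit was tested on simulated data. Gene starts of the table count from 0 and were raised by 1.

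The members, lists and ratios were chosen with earlier results of these data known. Besides the members, the genes named were up to 3 per role list with the largest change among genes past the threshold without overlap, the 3 genes most like each of the 3 most variable members, Trp53, Rb1 and markers. Eng, Sostdc1, Smad7, Smad1, Smad5, Smad9, Smad4, Id4, Tcf4, Tcf12 and Twsg1 fall outside this rule and were named after their values were seen. The alternatives were a pseudocount of 0.1, no filter, a filter at a mean FPKM of 5, TPM, a replicate block, array weights, eBayes without trend, quantile normalization and leaving out each library. The bounds from rounding and the Bmp7 to Bmp2 ratio were added after seeing the data. Proteins were not used here. A marker of the neuroendocrine list is not reported here.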

Additional observations from a re-analysis of the deposited data

Results flagged for a closer look

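Of 47 sets of values checked over the cancers, those of 42 named genes other than markers and of 5 ratios between members, 5 had 1 cancer apart from the other 4. The gap to the nearest library was divided by the whole range of the 5 cancers on the log2 scale. For separate sets of normally spread values chance alone gives about 1 in 20, or 2.35 of the 47. Bmp2 in cancer 1, at 3 FPKM against 10 to 13 in the others, had a gap of 0.807 of the range. Klhl22, named for its likeness to Bmp2, was at 4 FPKM in cancer 1 against 13 to 15 in the others, a gap of 0.885. Since that likeness was taken over the same libraries, the gap of Klhl22 is not separate from that of Bmp2. Eng in cancer 5, at 2 FPKM against 9 to 14 in the others, had a gap of 0.748. Nog in cancer 4 and Bmper in cancer 1 each had a gap of 1, and each rests on a difference of 1 FPKM, the smallest step of the rounded values. No other difference between groups of samples could be compared, since the libraries form a single pair of groups.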

How the results depend on the processing

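The directions and calls of Bmp7 and Grem1 held under the 16 alternatives with a test, their directions also at both bounds of the rounding, and the 5 ratios kept their direction under all 55. The ratios had no call to lose, and with 1 library left out the exact permutation test cannot go below 0.057 (without a cancer) or 0.095 (without a control). Of 154 tested alternative values of the member fold changes, 121 kept both, 10 lost the call, 4 gained it and 19 turned direction. Of 20 bounds from rounding, which have no test, 2 turned direction. Values below are log2 fold changes or counts of genes past the threshold, and the cause of a change was not tested. With TPM, genes changed numbered 7704 (7176 higher, 528 lower), members 4 higher and 0 lower, and pathway genes 26 higher and 1 lower. TPM gave -1.0 for Bmp2, 0.58 for Bmpr1a, -0.54 for Bmpr2, 0.14 for Id1, 1.0 for Id2 and 0.93 for Id3. With array weights, 8148 genes changed (3909 higher, 4239 lower) and 30 pathway genes (17 higher), and Bmp4 was -0.13, Id1 -0.79 and Id3 0.29. A mean FPKM of at least 5, which removes Bmp4, Bmpr2 and Nog, left 1244 genes higher, 1 member lower and 6 pathway genes lower. Bmp4 was -0.072 with a pseudocount of 0.1, -0.24 with quantile normalization and -0.42 at the lowest that rounding allows. Id3 was 0.47 with quantile normalization, and Nog 0.34 at the highest that rounding allows.

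Leaving out 1 library at a time gave 2490 to 5252 genes changed against 4948 (1369 to 2466 higher, 1121 to 2786 lower). The 3 lowest totals, 2490, 2643 and 2815, were without controls 1, 2 and 3, and 1702 genes were lower without cancer 3. Members changed numbered 2 to 5 and members lower 0 to 3. The former was 2 without control 1 or 3, and the latter was 0 without control 1 or 3 and 1 without cancer 1, cancer 3 or control 2. Pathway genes changed numbered 8 to 21, with 6 to 11 higher and 2 to 11 lower. The ranges were -2.15 to -1.55 for Bmp2, -0.22 to 0.24 for Bmp4, -1.52 to -1.07 for Bmpr2, -0.96 to -0.66 for Id1, -0.077 to 0.15 for Id2 and -0.25 to 0.16 for Id3. Nog passed the filter in 5 of these fits.

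The labels do not say whether a cancer and a control with the same replicate number belong together. Their deviations from their group means, where both had number 1, 2 or 3, correlated at -0.02, -0.19 and -0.10. So few pairs cannot exclude a pairing. A replicate block (consensus correlation -0.13) gave 4292 genes changed and 4 members, with Bmp2 at -1.86, Bmp7 at 1.70, Bmpr2 at -1.29, Grem1 at 2.79 and Id1 at -0.82, and changed no member's call.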
